A study of Homo sapiens with 38 samples.

Results

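The regions described here are the places in the genome where GATA3 was found in stimulated Jurkat cells with neither BHLHE40 nor acetylated histone H3 lysine 27 (H3K27ac) found over them. They were chosen by the positions of called regions, as the lines of the GATA3 list that overlapped no line of the BHLHE40 list and no line of the H3K27ac list by even 1 bp. Of 29009 GATA3 regions, 11564 met this rule, which is 39.9% of the list, the share the rule itself gives. The rest fell into 3 classes used for comparison: 3196 regions overlapped a BHLHE40 region only, 3322 an H3K27ac region only, and 10927 both. Regions of the chosen class are called GATA3-alone regions here, a name for the absence of overlap with these lists and not for the absence of other proteins, which were not measured in these lists.

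The series holds 38 ChIP-seq samples in 19 groups of 2, and 3 of its groups are used here. All 3 groups are Jurkat, an established human T cell acute lymphoblastic leukaemia line, carrying a control lentivirus (Ctrl_LV, per the series text the comparison for BHLHE40 over-expression in wild-type cells) and stimulated with 50 ng/ml PMA and 500 ng/ml ionomycin. The groups differ in the antibody: GATA3, BHLHE40 or H3K27ac. The stimulation is given as 5 hours in the sample labels and as 2 hours in the treatment protocol. All values come from 1 cell line, and the authors gave 1 list per pair of samples, so there are no values per sample, no error between samples and no test over samples. The lists hold no expression data against which the identity of the line could be checked.

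GATA3 is a zinc finger transcription factor that binds DNA at the bases GATA, is required for early T cell development and for the type 2 helper T cell program, and is also a central factor of luminal breast epithelium. BHLHE40 is a basic helix-loop-helix factor that binds the E-box CACGTG, mostly represses transcription, and is induced when T cells are activated. H3K27ac marks the nucleosomes of active enhancers and promoters, so a factor-bound region outside it is commonly read as a site that is bound without the mark of activity. A region is absent from a list when it did not pass the authors' threshold there, so absence from the BHLHE40 or H3K27ac list is not a measurement of zero.

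The sequences shown for the class come from gene starts, because the reference used here holds sequence for windows from 250 bases before to 50 bases after a gene start (RefSeq, build GRCh38.p14). Only 53 of the 11564 GATA3-alone summits lay in these windows, 57 windows in all, so what follows on sequence describes a small part of the class. The windows cover 79.0% of protein-coding records. The lines below give, for 8 genes chosen after their values were seen, the bases around the GATA3 summit on the strand of the gene, 5′ to 3′, none of them past the gene start. Capitals mark the long GATA motif, which is GATA with A or T before it and A or G after it (AGATAA is one of its 4 forms), or its reverse complement. IL13, the type 2 cytokine gene, is shown over its whole window before the start because it is the best known GATA3 target among them, and the others reach up to 50 bases to each side of the summit.
IL13, chr5:132657923-132658172, plus strand, summit at base 156: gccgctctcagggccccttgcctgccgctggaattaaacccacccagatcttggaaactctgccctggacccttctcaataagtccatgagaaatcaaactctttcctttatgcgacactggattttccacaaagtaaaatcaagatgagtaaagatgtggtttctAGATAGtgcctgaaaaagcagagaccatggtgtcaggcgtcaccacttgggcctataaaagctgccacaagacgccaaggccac
RASGRP4, chr19:38426354-38426454, minus strand, summit at base 51: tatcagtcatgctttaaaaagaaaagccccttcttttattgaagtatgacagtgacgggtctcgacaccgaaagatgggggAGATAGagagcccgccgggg
ADORA3, chr1:111503694-111503794, minus strand, summit at base 51: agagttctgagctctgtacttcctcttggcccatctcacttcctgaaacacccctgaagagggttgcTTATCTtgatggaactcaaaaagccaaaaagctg
EFNA3, chr1:155078587-155078654, plus strand, summit at base 18: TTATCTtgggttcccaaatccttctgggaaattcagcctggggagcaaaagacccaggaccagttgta
RHEX, chr1:206083432-206083532, plus strand, summit at base 51: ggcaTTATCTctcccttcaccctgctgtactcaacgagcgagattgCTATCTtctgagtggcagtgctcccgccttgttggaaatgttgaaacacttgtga
SAMD4A, chr14:54754698-54754798, plus strand, summit at base 51: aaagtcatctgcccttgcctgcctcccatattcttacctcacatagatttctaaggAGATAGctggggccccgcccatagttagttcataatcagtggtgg
GPR85, chr7:113087805-113087905, minus strand, summit at base 51: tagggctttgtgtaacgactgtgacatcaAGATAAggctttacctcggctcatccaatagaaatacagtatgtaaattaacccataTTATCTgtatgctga
CCDC141, chr2:179050177-179050277, minus strand, summit at base 51: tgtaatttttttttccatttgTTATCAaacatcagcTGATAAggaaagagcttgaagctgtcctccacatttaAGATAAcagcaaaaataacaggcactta

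In each of these 8 stretches a long GATA motif stood near the summit. In IL13 the centre of the motif was 13.5 bases downstream of the summit, which lay 95 bases before the start; the GATA3 signal value there was 13.7, and the nearest H3K27ac region was 3204 bp away. RHEX, which encodes a regulator of erythroid expansion, had a motif centred 1.5 bases upstream of its summit and a second one further upstream, with a signal value of 12.6. SAMD4A, which encodes an RNA-binding regulator of translation, had its motif 8.5 bases downstream of the summit. CCDC141 had 4 motifs in its window, 3 of them in the stretch shown, the nearest 11.5 bases from the summit. At EFNA3, an ephrin ligand gene, the distance was 14.5 bases; at GPR85, an orphan receptor gene, it was 18.5; at ADORA3, the gene of an adenosine receptor, it was 19.5. RASGRP4, a Ras activator of mast cells and other blood cells, had the highest signal value of the 8, 37.5, with its motif 33.5 bases from the summit. The same position serves ADORA3 and TMIGD3, whose starts coincide.

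Not every window held the motif, and 2 counterexamples are shown for that reason.
STOM, chr9:121370445-121370500, minus strand, summit at base 6: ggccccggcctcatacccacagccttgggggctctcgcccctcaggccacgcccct
PHLPP2, chr16:71724714-71724814, minus strand, summit at base 51: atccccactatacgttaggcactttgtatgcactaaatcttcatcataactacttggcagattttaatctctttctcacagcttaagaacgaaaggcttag
STOM encodes a membrane protein of red cells and PHLPP2 a phosphatase of the AKT pathway. Their signal values were 8.23 and 7.53, and neither window contained any of the 4 long forms on either strand. At PHLPP2 the nearest H3K27ac region was 33 bp away, so this region is one that the rule only just kept. Other windows without the motif had higher signal values, among them LINC02913 (48.4) and LOC105376342 (29.1). At LINC02913 the nearest H3K27ac region was 47106 bp away.

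Over all 57 windows with a GATA3-alone summit, 40 held a long GATA motif, or 70.2% (95% Wilson interval 57.3 to 80.5, counting error only), where 25.0% of all 35116 start windows did. Windows with a summit of the class that overlapped both other lists held it in 23.2% of 1718 (21.2 to 25.2). Windows with a BHLHE40-only summit held it in 57.1% of 63 (44.9 to 68.6), and windows with an H3K27ac-only summit in 50.0% of 56 (37.3 to 62.7). The intervals of GATA3-alone windows and of these last 2 classes overlap, while that of the class with both lies below all 3. These shares are not matched for base composition, which is given below. Several windows share a summit or bases, so windows are not independent, and the comparison is a description.

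**Figure D1:**
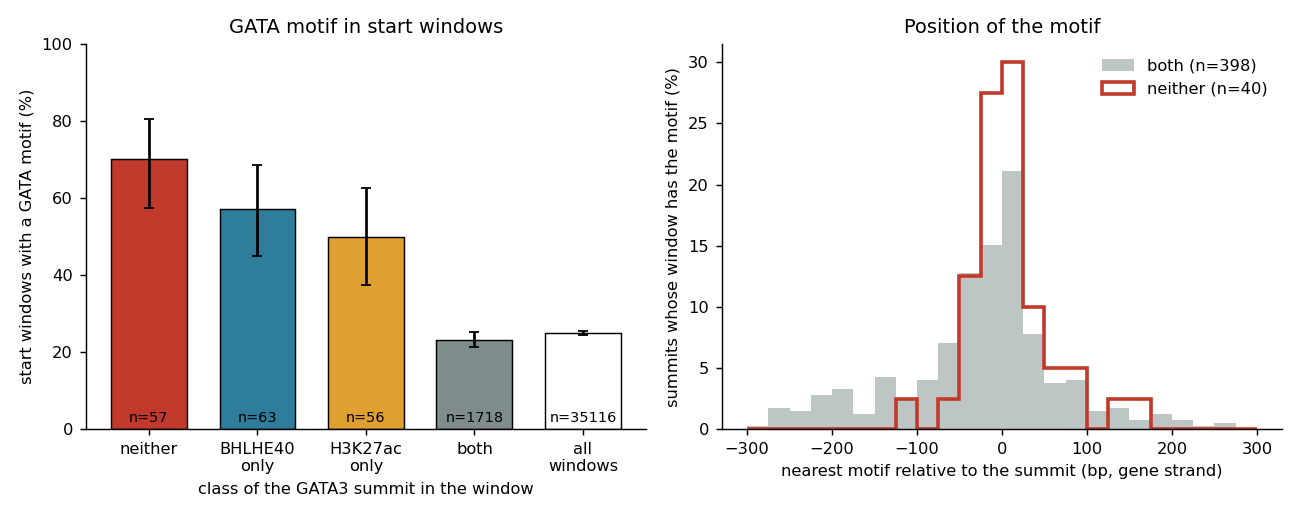
Left, percentage of gene start windows of 300 bases that hold a long GATA motif, by class of the GATA3 summit in the window, with 95% Wilson intervals and the number of windows; GATA3-alone windows ("neither") stand at 70.2% and all windows at 25.0%. Right, position of the nearest motif relative to the summit in 25-base bins. Percentages are of pairs of a summit and a window with the motif, so a summit in several windows is counted several times. The red outline (neither) gathers closer to 0 than the grey bars (both).

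Base composition differed as well, and it moves with the motif share. Windows with a GATA3-alone summit had a median of 49.7% G and C and 6 CpG, against 63.3% and 26 in windows of the class with both, and 58.7% and 14 over all windows. Within windows below 40% G and C the motif was in 8 of 9 GATA3-alone windows (88.9%) and in 85.2% of 27 with both. From 40 to 50% the shares were 85.0% of 20 and 60.8% of 102, from 50 to 60% they were 71.4% of 14 and 33.4% of 455, and at 60% or more they were 35.7% of 14 and 14.2% of 1134. The GATA3-alone share was the larger of this pair in each of the 4 classes, but the intervals of the pair were apart from each other only between 50 and 60%. All start windows held the motif in 59.2, 44.1, 26.7 and 8.04% in the same order. Thus within each base composition class windows with both held it more often than start windows in general, with intervals apart. This was so although their pooled shares were 23.2 and 25.0%. BHLHE40-only windows at 60% or more held it in 47.1% of 34, and H3K27ac-only windows below 40% in 2 of 2, both above GATA3-alone. In the remaining base composition classes their shares were below GATA3-alone. Their intervals overlapped that of GATA3-alone throughout, so a larger share in GATA3-alone windows was not shown against them.

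The motif also lay closer to the summit than in the class with both. The distances are not matched for base composition, motifs per window or region width. Distance was taken for each pair of a summit and a window with the motif, so a summit in several windows is counted several times. Over these pairs the median distance was 19.5 bases for GATA3-alone (interval 14.5 to 33.5, n = 40). For the class with both it was 39.5 bases (33.5 to 49.5, n = 398), and these intervals meet at 33.5. For BHLHE40-only summits it was 36.0 bases (18.5 to 48.5) and for H3K27ac-only summits 33.0 (19.5 to 56.5), and these intervals overlap that of GATA3-alone. The motif was within 25 bases of the summit in 57.5% of these pairs for GATA3-alone and in 36.2% for the class with both. Other motifs were searched in the same windows on both strands. The E-box CANNTG followed after 6 to 12 bases by GATA, a composite bound by TAL1 complexes with GATA factors, was in 8 of 57 GATA3-alone windows (14.0%, 7.29 to 25.3), in 2.50% of windows with both and in 2.65% of all windows. BHLHE40-only windows held it in 4 of 63 (6.35%, 2.50 to 15.2), an interval that overlaps the first, and H3K27ac-only windows in 1 of 56. The composite overlaps the GATA motif wherever its last bases are part of one. The BHLHE40 E-box CACGTG was in 4 of 57 (7.02%), near the 7.26% of all windows and below the 12.2% of windows with both, although the interval of the former, 2.76 to 16.7, includes the latter. The AP-1 motif TGANTCA was in 14.0%, against 7.71% of all windows, which lies within the interval of 7.29 to 25.3. TGTGGT, bound by RUNX factors, was in 12.3% against 13.1%, and the ETS core GGAA in 96.5% against 95.5%.

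A second set of sequences comes from microRNA hairpins that GATA3-alone regions overlapped. There were 6 such hairpins among 1562 in the RefSeq table, against 43 in regions with both, 7 in BHLHE40-only and 0 in H3K27ac-only regions. These classes covered 5.82, 10.0, 2.06 and 2.14 Mb in that order, so the counts are not matched for the bases covered. The mature forms of 3 loci are shown with the seed (bases 2 to 8) in capitals, because these are the microRNAs with known roles in blood cells or with 2 copies in this set.
hsa-miR-223-3p: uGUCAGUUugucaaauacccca
hsa-miR-29b-3p: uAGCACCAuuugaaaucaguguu
hsa-miR-4435: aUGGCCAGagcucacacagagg
MIR223, the myeloid microRNA gene on chromosome X, lay in a GATA3-alone region at chrX:66018113-66019019 with a signal value of 13.2, and its hairpin was 171 bp from the summit. The summit of the region at chr7:130877067-130877732 lay inside the hairpin of MIR29B1, a microRNA known for targeting collagens and DNA methyltransferases, with a signal value of 7.78. MIR4435-1 and MIR4435-2, both on chromosome 2, give the same mature sequence, so the GATA3-alone regions over them (signal values 19.3 and 12.3) lie in near-identical copies between which reads may have been split. The other 2 hairpins were MIR4637 and MIR3909, 363 and 361 bp from their summits, and no seed was shared between different microRNAs of this set.

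GATA3-alone regions were weaker and narrower than the rest of the GATA3 list. The signal value, the authors' measure of enrichment for each region, had a median of 10.1 (interval 10.0 to 10.2, from the binomial ranks of the median), with a lowest value of 1.81, quartiles of 7.86 and 13.9 and a highest value of 125. Medians were 16.3 for BHLHE40-only, 10.4 for H3K27ac-only and 13.0 for the class with both. Thus H3K27ac-only regions stood next to GATA3-alone regions, while BHLHE40-only regions were the strongest class by the median. A score of at least 830, which stands for an irreproducible discovery rate (IDR, how poorly a region repeats between samples) of 0.01, was reached by 67.2% of GATA3-alone regions, against 87.2, 76.8 and 82.3% in the other classes. The IDR threshold was passed by 30 of all 29009 GATA3 regions with a q-value of their own above 0.05. Of these, 13 were among the 11564 GATA3-alone regions, a share near that of the whole list.

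GATA3-alone regions were neither the strongest nor the weakest GATA3 regions. Their share was 35.9% in decile 1 of the list by signal value (the lowest 10%), 53.6% in decile 4 (signal values 8.57 to 9.81) and 6.20% in decile 10 (34.1 and above). Width went with class more steeply than signal did. The median width was 459 bp, against 604, 584 and 828 bp, and GATA3-alone regions made up 75.9% of GATA3 regions between 300 and 400 bp but 1.77% of those over 1500 bp. A wide region has more room to overlap another list, so the share by width is in part set by the rule. Between 400 and 500 bp, where width was nearly the same, the median signal value was 10.4 for GATA3-alone, 9.08 for both, 9.37 for H3K27ac-only and 12.8 for BHLHE40-only. Within this width class the GATA3-alone median was thus above that of the class with both. Between 800 and 1000 bp it was below, 12.9 (12.1 to 13.7) against 15.1 (14.2 to 16.0), and between 1000 and 1500 bp 13.2 against 17.5, so the order of these classes depended on width.

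**Figure D2:**
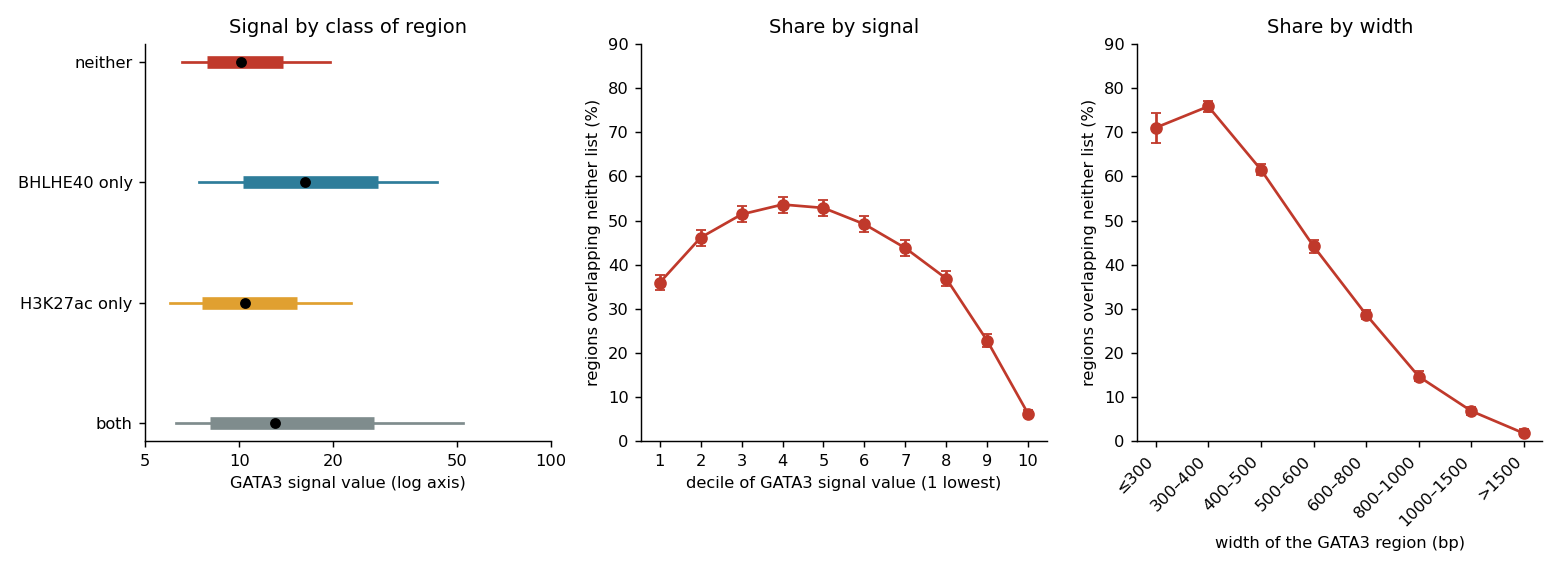
Left, GATA3 signal value by class of GATA3 region on a log axis: black points are medians, thick bars run from the 25th to the 75th percentile and thin lines from the 10th to the 90th. Middle and right, percentage of GATA3 regions that overlap neither other list, by decile of the signal value and by region width, with 95% Wilson intervals; the share is highest in decile 4 (53.6%) among deciles and is 1.77% over 1500 bp.

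The 10 strongest GATA3-alone regions had signal values from 70.3 to 125, and the first of them ranked 128 in the whole GATA3 list. It lay at chr14:105485229-105486243, outside any gene record and 906 bp from an end of CRIP1, which encodes a small LIM-domain protein. The second, chr2:112433415-112434090 (signal value 123), had its summit 48 bases before a start of RGPD8, one of a family of near-identical copies, and 46674 bp from the nearest excluded region, so reads from other copies may contribute. The stretch around that summit holds a long GATA motif well upstream of the summit.
RGPD8, chr2:112433646-112433743, minus strand, summit at base 51: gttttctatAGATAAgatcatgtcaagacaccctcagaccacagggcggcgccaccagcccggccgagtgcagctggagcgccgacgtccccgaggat
The third, chr1:8014799-8015650 (120), lay in ERRFI1, an inhibitor of the EGF receptor, and the fourth, chr10:98664216-98664968 (99.6), inside HPSE2, a heparanase relative. A pair of teneurin genes, which encode large adhesion proteins of neurons, each held one of the 10: TENM4 (chr11:78715566-78716366, 85.1) and TENM1 (chrX:125132074-125132712, 70.3). At TENM1 the nearest BHLHE40 and H3K27ac regions were 674947 and 674771 bp away. The remaining 4 lay in the long non-coding RNA gene LOC107987108 (81.5), and outside gene records at chr2:180604024-180604751 (77.1), near TREML4 (chr6:41246055-41246977, 75.2) and near NME8 (chr7:37833322-37833984, 73.3). Among the 10, 3 had an H3K27ac region within 1500 bp, at 1452, 1205 and 1085 bp.

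Most GATA3-alone regions lay within reach of acetylated chromatin. The nearest H3K27ac region was at a median of 4592 bp (4399 to 4806) and the nearest BHLHE40 region at 22919.5 bp (22021 to 23923). An H3K27ac region was within 1000 bp for 17.3%, within 10000 bp for 67.7% and more than 100000 bp away, or with none on the same sequence, for 330 regions (2.85%). For BHLHE40 the same shares were 6.82, 33.2 and 19.9%. The H3K27ac list has 113570 regions and the BHLHE40 list 26205, so a nearer H3K27ac region is partly a matter of list length. The distance depends on how weak an H3K27ac region may be: with only H3K27ac regions of −log10 q of at least 5, the regions free of overlap had a median distance of 22695 bp.

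Signal values were slightly higher farther from acetylation. The median signal value was 9.41 (9.19 to 9.69) for the 2006 GATA3-alone regions within 1000 bp of an H3K27ac region and 10.0 (9.88 to 10.2) for the 5823 between 1000 and 10000 bp. It was 10.5 (10.3 to 10.7) for the 3405 up to 100000 bp and 11.0 (10.3 to 11.9) for the 326 beyond. The first 3 intervals do not overlap, and the last, with few regions, overlaps the third. Median width went the other way, from 481 to 427 bp, and the share with a score of at least 830 from 68.1 to 62.6%.

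The 5 GATA3-alone regions farthest from either list lay at least 1000223 bp from both. A region at chrX:115322343-115322708, near LUZP4, was 1594819 bp from the nearest excluded region, with a signal value of 10.1. Another pair, chrX:138307556-138307981 (19.3) and chrX:138236031-138236562 (9.21), lay on the same stretch of chromosome X, with FGF13, a fibroblast growth factor homologue of neurons, as the nearest coding gene. The remaining regions were in CNTNAP3C on chromosome 9 and outside gene records on chromosome Y. CNTNAP3C is a member of a multicopy family where reads can be shared between copies. On chromosome Y the nearest coding gene was TSPY10, 124566 bp from the summit.

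At the edge of the rule, equal numbers of regions lay on both sides. A gap of at most 10 bases separated 31 GATA3-alone regions from an excluded region, and 31 other GATA3 regions were kept out by an overlap of at most 10 bases. A GATA3-alone region at chr13:75370672-75371148 in TBC1D4, a regulator of glucose transport, touched an H3K27ac region with no base between them and had a signal value of 23.1. It was tied with a region in DIAPH1 (5.71). The smallest overlap that kept a region out was 1 base, at chr1:50615122-50615750 in FAF1, a FAS-associated factor, with a signal value of 25.2, tied with a region in GID4 (7.25). Others just inside, in STATH (3.32) and LOC124902775 (10.5), had gaps of up to 2 bases, and others just outside, in PGBD5 (7.45), CSGALNACT2 (15.0) and by ALCAM (6.43), overlaps of up to 2 bases.

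Few GATA3-alone summits lay at the ends of genes. Of 11564 summits, 771 (6.67%, 6.23 to 7.14) were within 1 kb of an end of a gene record, a gene boundary, which may be a start or a terminus. The share was 10.2% for BHLHE40-only, 11.9% for H3K27ac-only and 35.2% for regions with both. For protein-coding records the shares were 2.34% for GATA3-alone and 4.10, 6.74 and 28.5% for the others. The median distance to a boundary was 11864.5 bp for GATA3-alone and 4229 bp for the class with both, and 24.0% and 13.2% lay over 100 kb from any coding boundary. The same ordering held inside the GATA3-alone class: within 1000 bp of H3K27ac 17.7% lay over 100 kb from a coding boundary, and beyond 100000 bp of it 53.4%.

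**Figure D3:**
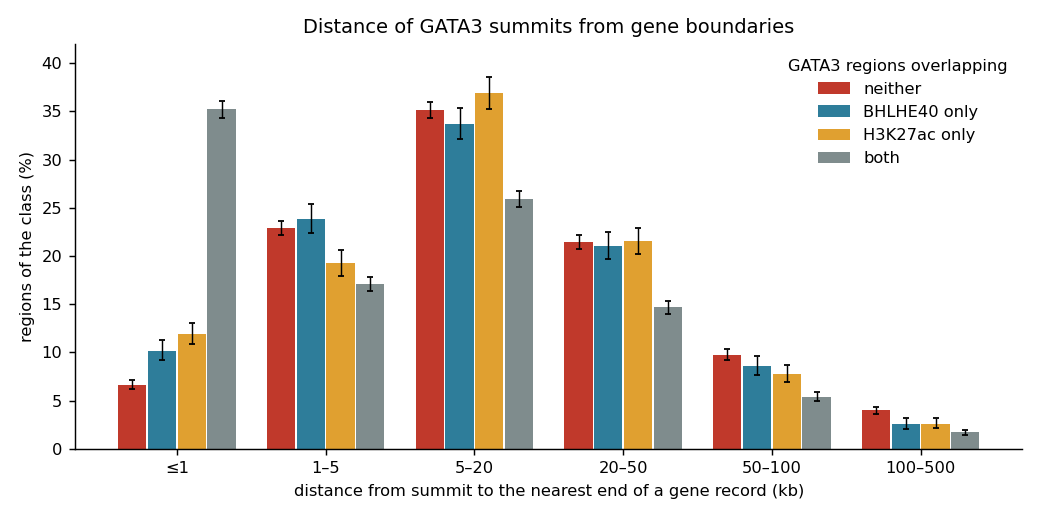
Percentage of each class of GATA3 region by the distance from its summit to the nearest end of a gene record, in kb, with 95% Wilson intervals. GATA3-alone summits (red) are 6.67% within 1 kb, where summits with both other lists (grey) are 35.2%, and from 1 kb outward the red bar is the higher of the pair.

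GATA3-alone summits were inside a gene record in 64.7% (63.9 to 65.6), the lowest of the 4 classes (66.9, 69.4 and 71.5%). The coding genes that held them were long: the median length of the host record was 141 kb (136 to 147), against 130, 122 and 88.2 kb in the other classes and 24.1 kb over all coding records. A summit is more likely to fall in a long gene by its length alone, and this applies to all 4 classes. By chromosome the share of GATA3 regions that were GATA3-alone ran from 28.5% on chromosome 19 and 32.9% on chromosome 17, the nuclear chromosomes with most coding genes per Mb, to 45.9% on X and 27 of 41 (65.9%, 50.5 to 78.4) on Y.

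A GATA3-alone summit lay inside 3787 of 20056 protein-coding records (18.9%). In 1597 of the 7276 coding records with any GATA3 summit (21.9%), every GATA3 summit was GATA3-alone. Records with a sole GATA3 summit are part of this count, and 39.9% of the whole list was GATA3-alone. The gene records with most were CASC15 on chromosome 6, a long non-coding RNA gene, with 20 of its 60 GATA3 summits, and SSBP2, a partner of the LDB1 complexes that GATA factors join, with 18 of 34. PDE3B, a phosphodiesterase of cyclic nucleotides, had 16 of 22, LOC107987108 16 of 26, and CDK6, a kinase of the cell cycle expressed in T cell leukaemia, 15 of 46. VAV3, a signalling protein of the VAV family, held 14 of 34, KLF12, a zinc finger repressor, 14 of 32, and DAB1, an adaptor of reelin signalling, 14 of 22. PRKCA, a protein kinase C that PMA activates, held 13 of 28 and GNAQ, a G protein subunit, 12 of 25. These genes differ in make-up: in CASC15 and CDK6 33.3 and 32.6% were GATA3-alone, below the 39.9% of the whole list, and in PDE3B, DAB1 and LOC107987108 most were (72.7, 63.6 and 61.5%).

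Per 100 kb, among coding records of at least 200 kb, CDK6 came first with 6.48 GATA3-alone summits, followed by PDE3B (6.26), SSBP2 (5.31), GNAQ (3.80) and STIM1 (3.77), which encodes the calcium sensor of the endoplasmic reticulum. The median signal values of their GATA3-alone summits were 7.82, 8.95, 7.84, 9.24 and 10.3, against 10.1 for the class. Those of CDK6 and SSBP2 lay just below the lower quartile of the class, 7.86, and only that of STIM1 was above the class median. All of these genes also held H3K27ac regions, from 35 in PDE3B to 56 in CDK6. In 4 genes, named after their values were seen, every one of at least 5 GATA3 summits was GATA3-alone: SCFD2 and SCLT1 with 6 of 6, and CENPE, a motor protein of mitosis, and KALRN, an exchange factor of synapses, with 5 of 5. These 4 genes held 21, 20, 8 and 7 H3K27ac regions and 1, 1, 0 and 0 BHLHE40 regions, so acetylated regions were present in each but not at the GATA3 summits.

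**Figure D4:**
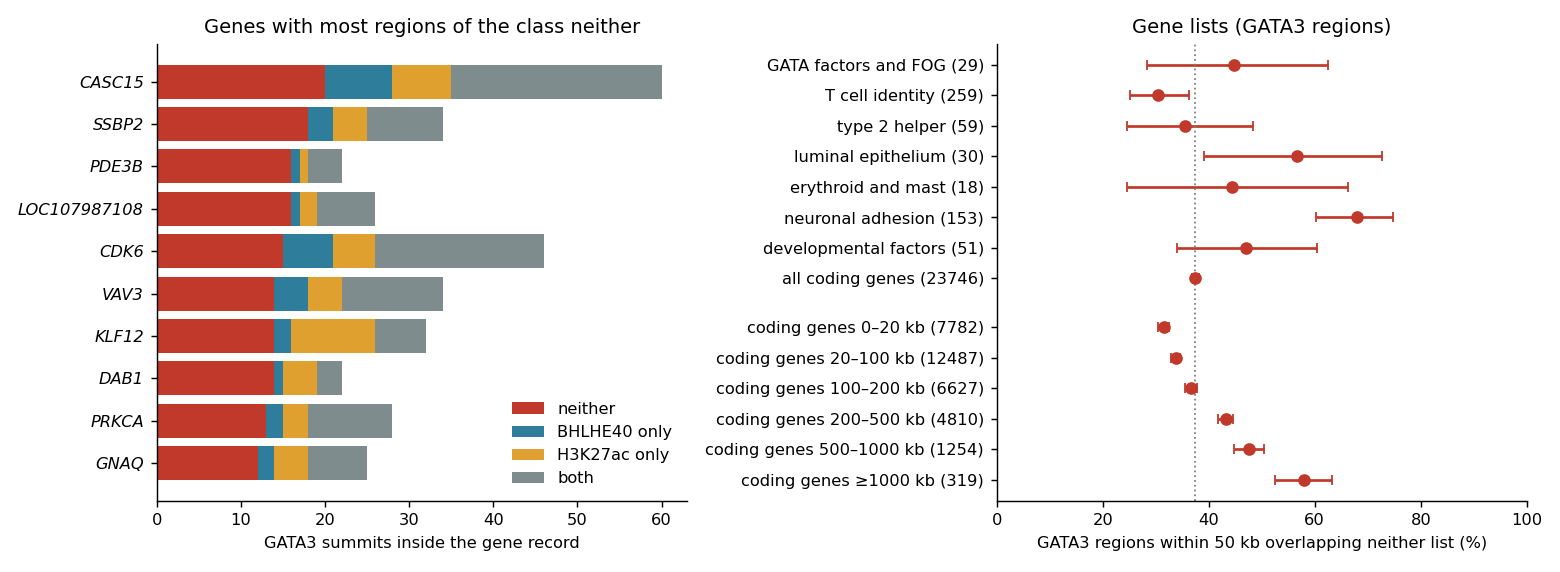
Left, number of GATA3 summits inside the 10 gene records with most GATA3-alone summits, by class. Right, percentage of the GATA3 regions within 50 kb of a list's genes that were GATA3-alone, with 95% Wilson intervals and the number of GATA3 regions in parentheses; the dotted line is all coding genes (37.5%), the neuronal list stands at 68.0%, and the lower rows give coding genes by length.

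Most GATA3-alone regions stood by themselves, and a minority formed runs. Measured between summits, another GATA3-alone region was within 10 kb for 17.1% (16.4 to 17.8), and the median distance to the nearest was 52839.5 bp. Joined across gaps of at most 10 kb between region edges, they formed 941 runs of 2 or more, which held 2062 regions, and 33 runs of 4 or more. The 6 longest runs had 5 or 6 regions each, 4 of them tied at 5.

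Among these 6 runs the one with the highest signal value lay at PTGER4, the gene of a prostaglandin E2 receptor, with 5 regions outside the gene and 1 inside. Its 6 regions in chr5:40654650-40681476 had signal values from 7.37 to 20.2, and 3 GATA3 regions of other classes, 3 BHLHE40 and 7 H3K27ac regions lay between them; the gaps to an H3K27ac region ran from 12 to 3358 bp. The 6 regions in SSBP2 (chr5:81642277-81664851, 5.59 to 16.4) were set apart from BHLHE40 by at least 7881 bp, had no other GATA3 region among them and 3 H3K27ac regions between. In TLE4, a Groucho-type corepressor, 5 regions (chr9:79576566-79602773, 5.50 to 18.7) alternated with 2 GATA3 regions of other classes. Between CSRNP1 and XIRP1 the 5 regions at chr3:39165452-39180072 (7.61 to 16.6) were the sole GATA3 regions of their span. At the facing ends of PSMA1, a proteasome subunit gene, and PDE3B, 5 regions at chr11:14638611-14652854 (5.51 to 15.2) flanked a pair of GATA3 regions of other classes that lay inside PDE3B. The run in CABCOCO1 (chr10:61737533-61757164, 2.86 to 12.6) stood beside wide BHLHE40 regions, the nearest 247 bp away.

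**Figure D5:**
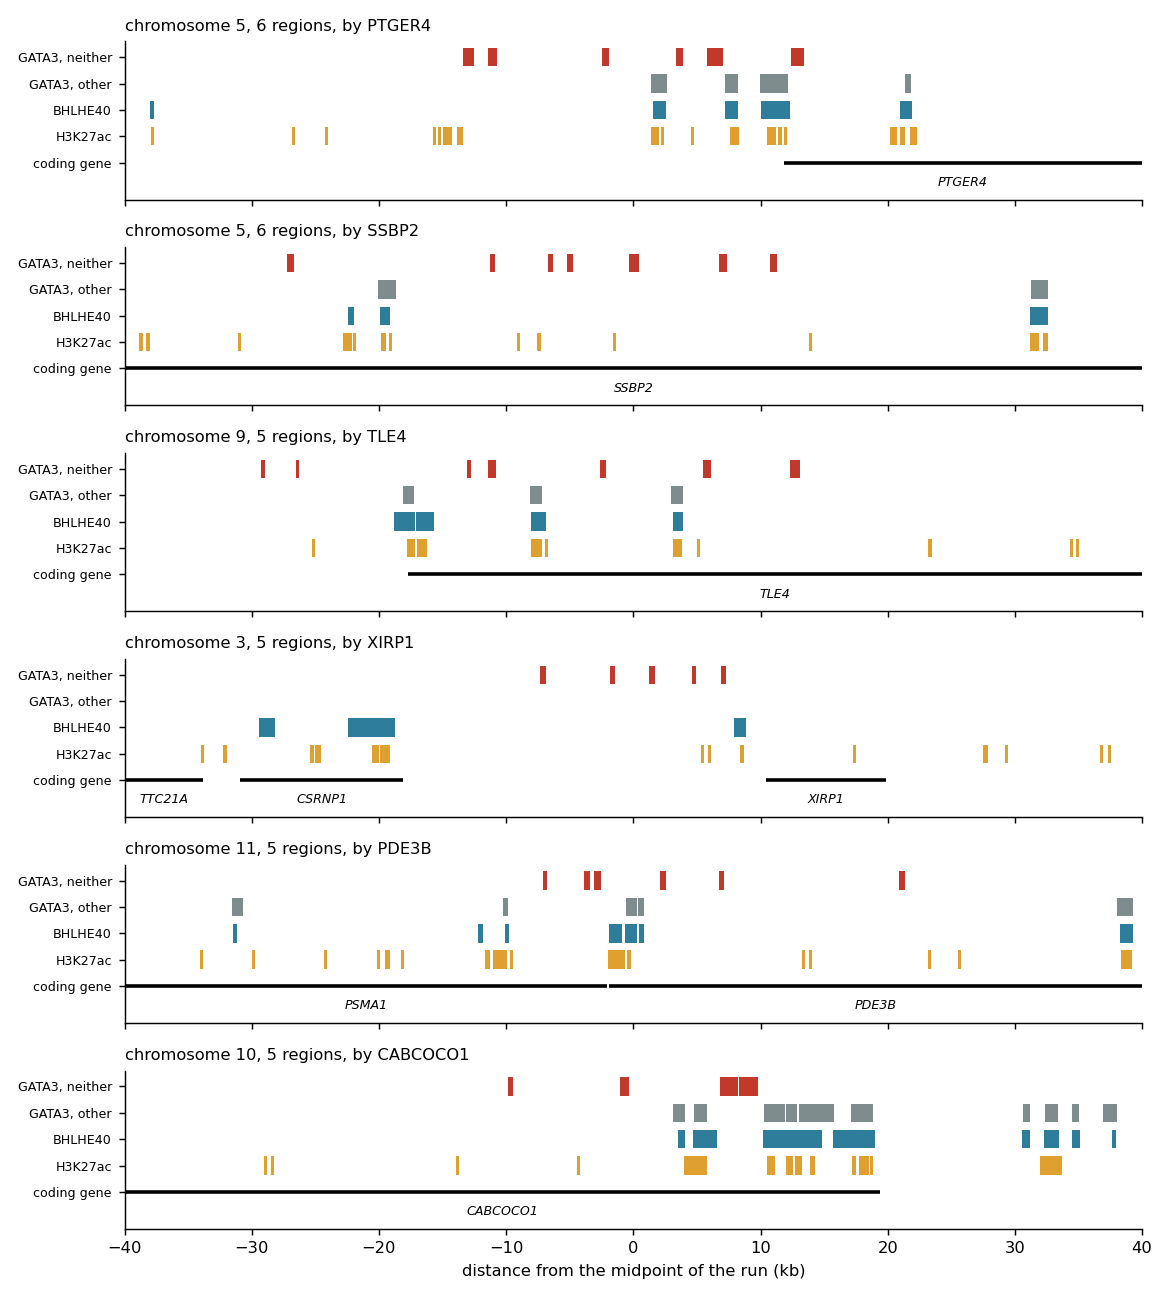
Maps of the 6 longest runs, centred on the midpoint of each run and spanning 40 kb to each side: GATA3-alone regions (red), other GATA3 regions (grey), BHLHE40 (blue) and H3K27ac (yellow) regions and coding gene records (black lines, cut at the edge). The red boxes lie between or beside yellow boxes in every map, and the SSBP2 and XIRP1 maps show no grey box within the run.

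The genes of the factors themselves had GATA3-alone regions nearby. Within 50 kb of GATA3, 4 of 6 GATA3 regions were GATA3-alone: chr10:8028407-8028819 (signal value 9.62), chr10:8035148-8035907 (15.3), chr10:8096006-8096407 (14.2) and chr10:8122739-8123592 (6.73). None of the 4 was inside the gene, and their nearest H3K27ac regions were 2564 to 7100 bp away. Around BHLHE40 it was 3 of 9, the strongest at chr3:5001325-5001890 (19.7), 16303 bp beyond the gene and 526 bp from a BHLHE40 region. TAL1, the helix-loop-helix factor that is deregulated in many T cell leukaemias, had 1 of 5, inside the gene at chr1:47224822-47225222 (9.65), 531 bp from an H3K27ac region.

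Gene lists were counted within 50 kb of each gene, where 37.5% of all GATA3 regions near coding genes were GATA3-alone and 45.9% of coding genes had such a region. At that distance, lists of genes for T cell identity and for type 2 helper cells had shares of regions below 37.5%. These are the settings in which GATA3 acts in T cells, and the interval of the second list includes 37.5%. Their median gene lengths were 38.9 and 8.69 kb, and 37.5% is not matched for length. Over all coding genes the share was 33.8% for records of 20 to 100 kb and 31.5% under 20 kb. The first value lies within the interval of the T cell identity list, and the second below the share of the type 2 list. For the 32 T cell identity genes, 79 of 259 GATA3 regions were GATA3-alone (30.5%, 25.2 to 36.4) and 25 genes had one. ETS1, a factor of lymphocyte development, had 11 of 22, RAG1, the recombinase gene, 7 of 9, RUNX1, a partner of GATA3 in T cell development, 7 of 33, and IKZF1 (Ikaros) 6 of 18. Thus RUNX1 and IKZF1 had many GATA3 regions of other classes, and RAG1 few. Counted inside the gene records alone, the share of the T cell identity list was 33.6% of 143 regions (26.3 to 41.6), an interval that includes 37.5%. With a score of at least 830 it was 24.1% of 199 regions within 50 kb (18.7 to 30.5).

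For the 15 type 2 helper genes, 21 of 59 GATA3 regions were GATA3-alone (35.6%, 24.6 to 48.3), and 12 genes had one. Counted inside the gene records alone, the share was 53.8% of 13 regions (29.1 to 76.8), and both intervals include 37.5%. CCR8, a chemokine receptor, had 4 of 13 and PTGDR2, the prostaglandin D2 receptor known as CRTH2, 3 of 7, the strongest at chr11:60821762-60822241 with a signal value of 46.2. At IL1RL1, the receptor for interleukin-33, all 3 GATA3 regions within 50 kb were GATA3-alone, with signal values from 9.90 to 22.8. IL13 and RAD50, neighbours in the type 2 cytokine locus, share 3, among them the region at the start of IL13 whose sequence is shown above. For the 8 GATA and FOG genes it was 13 of 29 (44.8%, 28.4 to 62.5), and inside the records alone 23.1% of 13 (8.18 to 50.3); GATA2, the factor of blood progenitors, had 3 of 8, and the sole GATA3 region near GATA6 was GATA3-alone with a signal value of 32.5.

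Within 50 kb, the lists for other tissues had larger shares. For 40 neuronal adhesion and synapse genes, 104 of 153 GATA3 regions were GATA3-alone (68.0%, 60.2 to 74.8) and 35 genes had one (87.5%). DAB1 had 14 of 26, PTPRD, a receptor phosphatase of synapses, 7 of 8, NTM (neurotrimin) 6 of 9 and TENM3 6 of 7. These genes have a median length of 1194 kb, and length moves with the share. Over all coding genes the GATA3-alone share was 31.5% for records under 20 kb, 33.8% up to 100 kb, 36.6% up to 200 kb, 43.2% up to 500 kb, 47.6% up to 1000 kb and 58.0% (52.5 to 63.3) for the 69 longer records. Of these 69, 62 (89.9%) had a GATA3-alone region within 50 kb, as did 82.1% of coding genes from 500 to 1000 kb. The interval of the neuronal list's share of regions overlaps that of these 69 records, some of which are in the list. The part of gene length was not tested further. With a score of at least 830 the share for the neuronal list was 56.2%.

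Among 20 genes of luminal epithelium, where GATA3 acts with the oestrogen receptor, 17 of 30 GATA3 regions were GATA3-alone (56.7%, 39.2 to 72.6), with 3 of 4 at ESR1, the oestrogen receptor gene, 2 of 3 at PRLR, the prolactin receptor gene, and 2 of 5 at XBP1. Among 41 developmental regulators it was 24 of 51 (47.1%, 34.1 to 60.5), with 4 of 6 at SOX5, 3 of 5 at SOX6 and 3 of 4 at EBF1, the B cell factor. Among 22 erythroid, mast cell and megakaryocyte genes it was 8 of 18 (44.4%, 24.6 to 66.3), with 2 of 2 at SLC4A1, the anion exchanger of red cells, and 2 of 3 at ITGA2B, the platelet integrin gene; inside the records of the 22 genes there were 3 GATA3 regions and 0 of them were GATA3-alone (interval 0 to 56.1%). The intervals of the developmental and erythroid lists include 37.5%, that of the luminal list starts just above it, and nothing particular to these lists follows from them. No list gene's transcription was measured in these lists.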

How the data were processed

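The 3 groups of 2 ChIP-seq samples of stimulated Jurkat cells (of 38 samples in 19 groups; 16 groups were not used here) are each represented by 1 deposited list of regions. The submitters' processing notes for these samples name bcl2fastq 2.20, MACS2 and hg38; the aligner, any filters and any use of input are not given in the sources used here. Per the deposited list names, the factor lists passed an IDR of 0.05 and the H3K27ac list is pooled, so weak acetylated regions are kept. The authors' deposited score of the factor lists ran from 540 to 1000, and 830 stands for an IDR of 0.01. The deposited signal value per region is the authors' enrichment; what it is relative to is not given. The deposited −log10 q values were used to describe and filter regions only. Depth is unknown.

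Overlap meant at least 1 shared bp. Most distances run between region edges, or from the summit to an end of a gene record. The distance to the nearest other GATA3-alone region runs between summits. Gene records are from RefSeq (GRCh38.p14), with 59792 records, 20056 of them protein-coding, and no strand. Coordinates are 1-based. Motifs were searched in 35116 RefSeq start windows of 27305 genes, and 11025 of the 11564 GATA3-alone regions lie on chromosomes with such windows. Intervals are 95% Wilson intervals for shares and binomial rank intervals for medians; they cover counting only, and regions are not replicates. The overlap, distance and motif functions were tested on simulated data, and 6 of 6 checks were exact. Python 3.11.15, numpy 2.4.6, pandas 2.3.3 and scipy 1.17.1 were used.

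The class of regions, the gene lists and the rules for named items were chosen with earlier results of these data known. Named were the 10 strongest, 5 farthest and 5 closest regions (those on chromosome 8 left out) and the 5 smallest overlaps, the longest runs, the 10 genes with most summits and 5 densest, the genes with most regions in each list, and the loci of GATA3, BHLHE40 and TAL1. The rule asked for 3 or 4 genes per list; ties made it 5 for type 2 helper genes, and leaving out genes on chromosome 8 and ties at 1 region made it 2 for the GATA and erythroid lists, while GATA6 was named after its value was seen. The search of start windows was added after the data were seen.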

Additional observations from a re-analysis of the deposited data

How the results depend on the processing

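No paired analysis was possible because the authors gave 1 list for every 2 samples, so no sample can be paired or left out. The share of GATA3 regions free of overlap was 46.0% with overlap judged at the summit, 35.6% with a gap of at least 500 bp, 32.2% with a gap of at least 1 kb, 47.3% against H3K27ac regions with −log10 q of at least 5, and 35.2% among regions with a score of at least 830. The median signal value was 12.1 at a score of at least 830, 10.3 for regions at least 1 kb from any other, and 11.1 at widths of 400 to 800 bp. The median distance to H3K27ac rose to 22695 bp with its stricter list; that to BHLHE40 was 21727 bp with that list, and 21903 bp once lower scores than 830 were left out. The share of summits near a gene boundary was 2.34% with coding records, 29.6% within 5 kb, and 6.13% at least 1 kb from any other region. The share inside a record was 51.9% with coding records and 63.6% at least 1 kb from any other region. The share with a neighbour was 10.4% within 5 kb, 48.4% within 50 kb and 12.8% at a score of at least 830. Of 178 list genes, 116 had a GATA3-alone region within 50 kb and 72 inside the record. Alternatives added after seeing the data gave a motif share of 89.5% for GATA3-alone windows with GATA alone as the motif, and for windows with both 48.8% with GATA alone and 28.3% at a score of at least 830; the GATA3-alone share was the larger under each alternative run for both classes. Planned motif and base composition results around all summits were not run, because no genome sequence was used here. The lists give no depth, so weak BHLHE40 or H3K27ac signal under a threshold cannot be told from none.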
